A study of Paralichthys olivaceus with 6 samples.

Results

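ATP-driven pumps are membrane proteins that spend ATP to move ions or lipids against their gradient. The pump genes described here are the genes whose identifier in the count tables begins with a symbol of the sodium-potassium pump (atp1a, atp1b), the calcium pumps (atp2a, atp2b, atp2c), the vacuolar proton pump (atp6), the copper pumps (atp7), the lipid flippases (atp8a, atp8b, atp9, atp10, atp11) or the P5 pumps (atp13). The pattern matched 28 of 24395 genes. They comprised 3 beta subunits of the sodium-potassium pump, 3 calcium pumps, 9 subunits of the vacuolar proton pump, 2 copper pumps, 3 P5 pumps and 8 flippases. No catalytic alpha subunit of the sodium-potassium pump was among them. Another 33 genes carry only a LOC number in the tables and are given a symbol of these families by RefSeq, 3 of them alpha subunits, and they are described apart from the 28.

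The study compared hindbrain RNA of the farmed flatfish olive flounder (Paralichthys olivaceus) between animals chosen for a bold and animals chosen for a shy personality. There were 3 libraries per group, with no drug, allele or time course, and all fish were kept in 500 L tanks at 18 °C under a 12:12 light to dark cycle. For every library the personality characteristic contradicts the title and the source name, so the groups are named here as titled bold and titled shy, and every direction below turns around if the characteristic is right. The labels name 6 individuals and leave unsaid whether fish were pooled within a library. The p-values therefore describe the spread among these libraries, in which differences between fish and technical differences cannot be told apart.

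P-type pumps, which include the sodium-potassium, calcium, copper, P5 and flippase families, pass through a state in which an aspartate of the pump itself carries the phosphate of ATP. The vacuolar proton pump is instead a rotary machine, in which a soluble V1 part hydrolyses ATP and turns a membrane V0 part that carries protons. In brain the sodium-potassium pump restores the ion gradients that firing neurons run down, calcium pumps clear calcium from the cytosol, and the vacuolar pump acidifies lysosomes and charges synaptic vesicles for transmitter loading.

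Library totals lay between 18081694 and 22805563 reads, and 3 reads corresponded to between 0.132 and 0.174 CPM, the reads of a gene relative to the library total after TMM scaling, multiplied up to a common size. All 28 pump genes passed edgeR's filter on low counts, and together they averaged 0.716% of TMM-scaled counts over the libraries. Genes that mark hindbrain and cord position, looked up by exact symbol only, were mixed. Of the hox genes searched only hoxa2 was found, and others may stand under LOC numbers. The neuron identity genes isl1 and lmx1b had 26.0 ± 4.80 CPM and 21.8 ± 8.45 CPM, dbh and en2 had 11.4 ± 3.15 CPM and 5.11 ± 0.984 CPM, while hoxa2 had 42 reads over all libraries, fev 24 and phox2a none. The library titled bold 2 stood apart from the others. It had the fewest reads, 18081694, and the lowest TMM scaling factor, 0.953, and the part of depth in its values was not tested. It held the highest value of the 6 libraries in 25.4% of all tested genes and the lowest in 29.3%, and the library titled bold 1 came next with 16.5% and 16.9%. Summed over 5 neuron markers it had 8346 CPM against 5758 to 6193 CPM in the others. In that sum snap25, with 5700.1 CPM against 3749.6 to 4175 CPM, stmn2 and gad2 were highest in titled bold 2, and syt1 and elavl4 were not. Over 4 markers of radial glia and astrocytes it had 1489 CPM against 1915 to 3158 CPM, with slc1a2 and s100b at their lowest and aqp4 and slc6a9 not. Over 3 oligodendrocyte and myelin markers it was also the highest, with 423 CPM against 309.9 to 341 CPM. In that sum mag and olig2 were highest in titled bold 2, and mpz was at its lowest there. Over 5 microglia and macrophage markers titled bold 2 was the highest, at 199.6 CPM against 171 to 194 CPM. There aif1l was at its highest, mpeg1 and irf8 were at their lowest, and csf1r and spi1 were at neither end. Most of the sum was aif1l, with a mean of 160.6 CPM against 2.98 to 9.64 CPM for the others. The median log2 deviation of the 5 genes from their means was lowest in titled bold 2, at -0.32. Over 4 endothelial markers titled bold 2 was the lowest, at 174 CPM against 189 to 215 CPM. Of these flt1 was at its lowest there, and kdr, tie1 and cldn5 were not. Between the title groups edgeR called none of these markers. The log2 fold was below 0 for all 4 radial glia and astrocyte markers, at a median of -0.44. It was also below 0 for 4 of 5 microglia and macrophage and 3 of 4 endothelial markers. It was above 0 for 4 of 5 neuron and 2 of 3 oligodendrocyte and myelin markers. Groups did not overlap for aqp4, flt1 and cldn5, lower in titled bold, and stmn2, higher, beside 9.53% of all tested genes. The part these markers have in the values below was not tested, and in bulk tissue fewer cells of a type and less RNA per cell cannot be told apart. CPM values are not divided by transcript length, so they are compared here between libraries and not between genes. Values after ± are SDs over libraries for CPM and SEs for log2 folds, which are titled bold over titled shy throughout.

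No pump gene was called different between the groups. With edgeR's quasi-likelihood test, 0 of 28 had a Benjamini-Hochberg adjusted p under 0.05, beside 0% of all 19755 tested genes, and the smallest adjusted p was 0.955. At an unadjusted p under 0.05 edgeR again found 0 of 28 pump genes, beside 3.49% of all tested genes, and DESeq2 and limma-voom likewise called 0 pump genes, beside 0.0638% and 0% of the genes they tested, and neither gave a pump gene an unadjusted p under 0.05. Only atp6v1d and atp9a, 2 of the 28, had groups without overlap, both higher in libraries titled bold, beside 9.53% of all tested genes in either direction and 4.53% in that direction. The median log2 fold of the 28 was 0.051, with 19 above 0 and 9 below, and the median over all tested genes was -0.0090. The split was 14 above and 14 below with library totals as the only scaling. Each 95% interval is for 1 gene in the edgeR fit of these 6 libraries and is not adjusted for the number of genes. For 20 of 28 pump genes the interval lay within a 1.5-fold change in either direction, and for 24 within a 2-fold change. The 4 intervals that reached further belonged to atp2b1, atp7b, atp10b and atp10d.

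**Figure D1:**
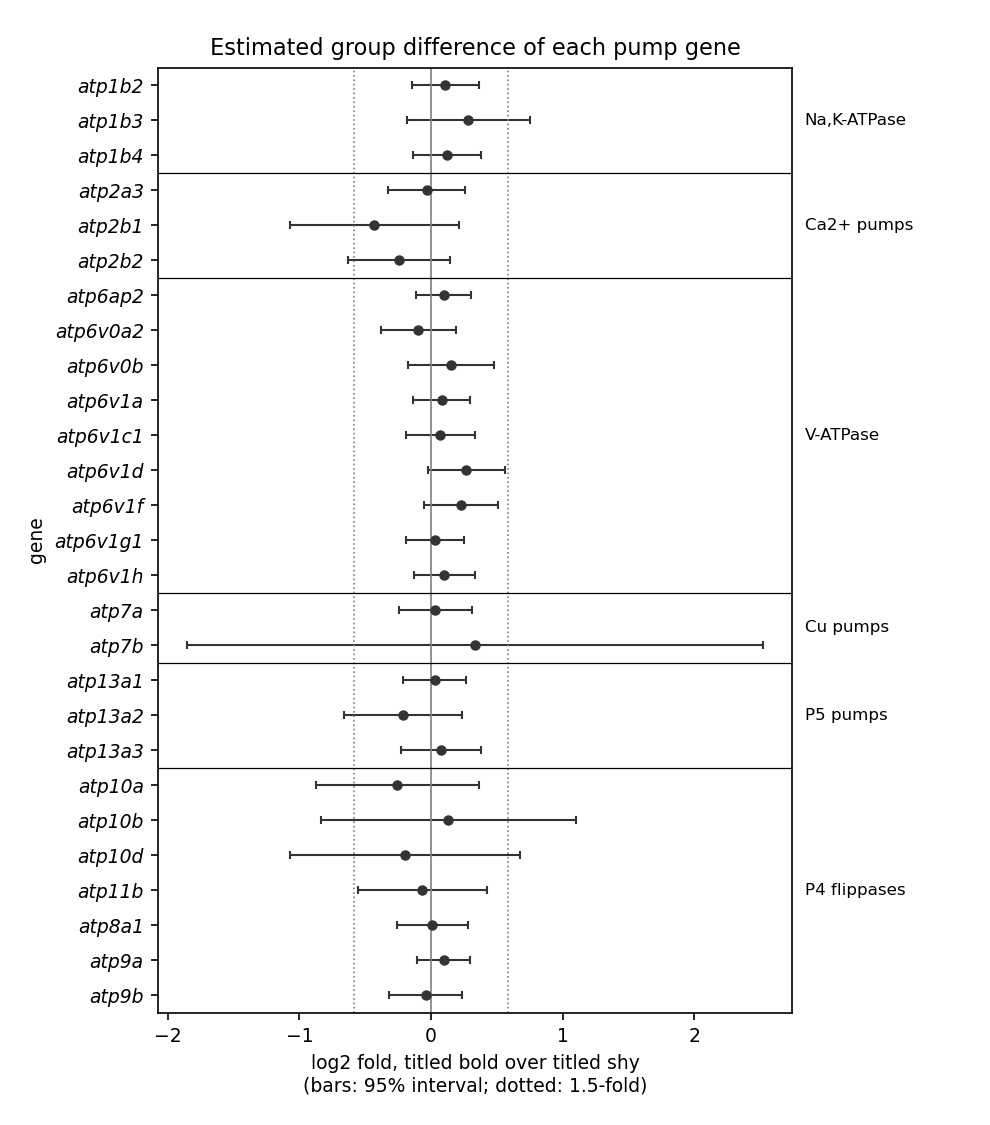
Estimated difference of 27 pump genes between 3 libraries titled bold and 3 titled shy, as a log2 fold on the x axis, with points for edgeR estimates, bars for 95% intervals and dotted lines at a 1.5-fold change. Every interval includes 0, and the interval of atp7b, -1.85 to 2.52, is far wider than the others.

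The 3 beta subunits of the sodium-potassium pump were read abundantly in every library. A beta subunit carries the catalytic alpha subunit to the cell surface and is needed for its folding. The gene atp1b3, which encodes the beta-3 subunit, had 905, 1643 and 1140.3 CPM in libraries titled bold and 941, 953 and 1135 CPM in libraries titled shy. The library titled bold 2 lay above the other 5, titled bold 1 was the lowest of all, and the groups overlapped. Its log2 fold was 0.28 ± 0.20, with a 95% interval of -0.18 to 0.75 and an edgeR adjusted p of 0.955. Without titled bold 2 the log2 fold was 0.019, and without titled bold 1 it was 0.48.

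The gene atp1b2 encodes the beta-2 subunit, which in mammals is also known as an adhesion molecule on glia. It had 885, 1094 and 949.6 CPM in libraries titled bold and 929, 872 and 917 CPM in libraries titled shy. Again titled bold 2 was the highest, the other 5 libraries stayed within 872 and 949.6 CPM, and the groups overlapped, with a log2 fold of 0.11 ± 0.11. The third, atp1b4, encodes a beta subunit that in placental mammals has moved to the nuclear envelope of muscle and in other vertebrates joins the pump. It had 1229.9, 1364 and 1427 CPM in libraries titled bold and 1113, 1271 and 1317 CPM in libraries titled shy. Here titled bold 3 was the highest library and titled shy 1 the lowest, and the log2 fold was 0.12 ± 0.11. All 3 log2 folds were above 0 under each scaling and without any 1 library. Their median was 0.12, and 0.019 without titled bold 2.

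**Figure D2:**
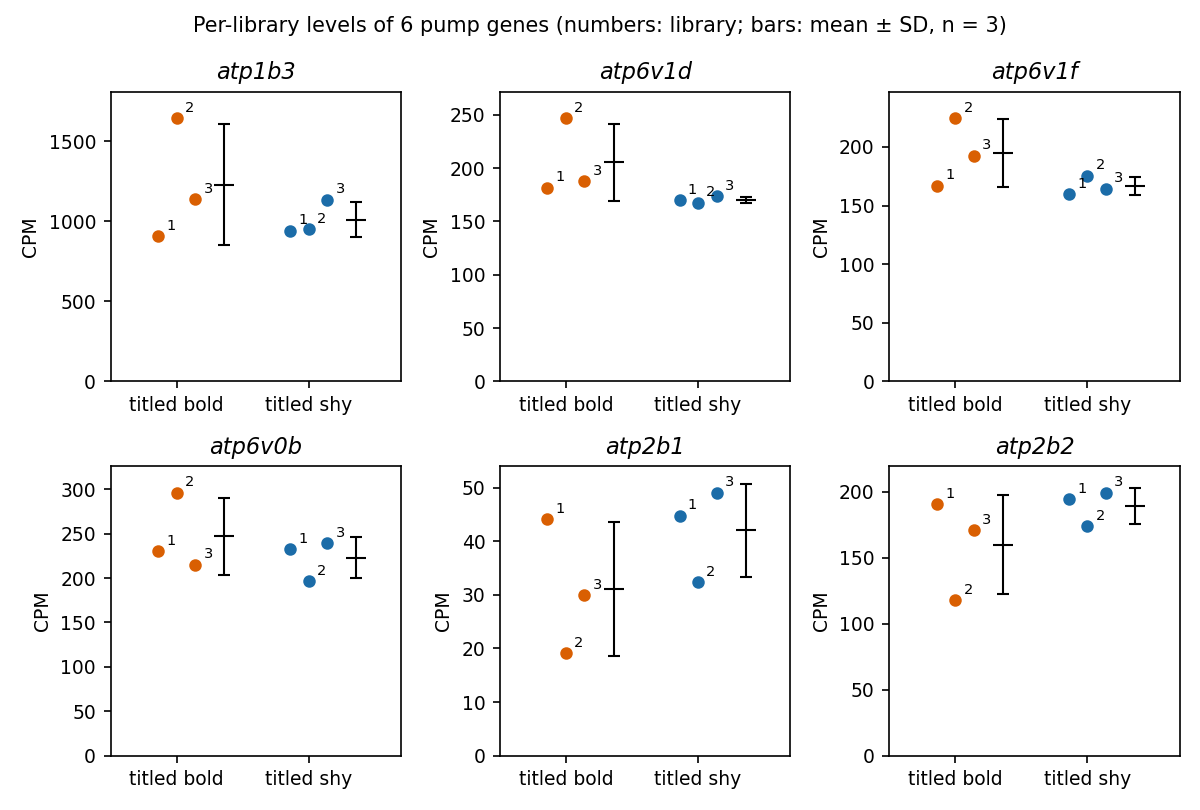
CPM of atp1b3, atp6v1d, atp6v1f, atp6v0b, atp2b1 and atp2b2 in each library, with library numbers beside the points and mean ± SD over 3 libraries as bars; each y axis starts at 0. The library titled bold 2 is the highest of the 6 for the first 4 genes and the lowest for atp2b1 and atp2b2.

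The calcium pump genes were estimated lower in libraries titled bold under every scaling, and none was called. The plasma membrane pumps push calcium out of the cell. The gene atp2b1, which encodes the widely expressed member of that family, had 44.2, 19.2 and 30.0 CPM in libraries titled bold and 44.8, 32.3 and 49.1 CPM in libraries titled shy. It was lowest in titled bold 2, next lowest in titled bold 3, and titled bold 1 lay among the libraries titled shy, so that the groups overlapped. The log2 fold of -0.43 ± 0.28 was the largest in size among the 28, with a 95% interval of -1.08 to 0.21 and an edgeR adjusted p of 0.955. It ranged from -0.76 to -0.18 when 1 library was left out, the first without titled bold 1 and the second without titled bold 2.

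The gene atp2b2 encodes a fast plasma membrane calcium pump, which in mammals is abundant in cerebellar Purkinje cells and in hair cells. It had 190.3, 118 and 171 CPM in libraries titled bold and 194, 174 and 199 CPM in libraries titled shy. Titled bold 2 fell below the range of 171 to 199 CPM that held the other 5 libraries. The log2 fold was -0.24 ± 0.17, and -0.066 without titled bold 2. Inside the cell, atp2a3 encodes an isoform of the pump that returns calcium to the endoplasmic reticulum, and it had 709, 946 and 820.3 CPM in libraries titled bold and 812, 809 and 909.8 CPM in libraries titled shy. In contrast to the plasma membrane pumps, titled bold 2 was its highest library. The groups overlapped, at a log2 fold of -0.033 ± 0.13, and the sign turned without titled bold 1, to 0.086, and without titled shy 3, to 0.042.

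Of the 9 subunits of the vacuolar proton pump, 8 had a log2 fold above 0, beside 48.3% of all tested genes, and none was called. The V1 part was represented by 6 of these genes. The gene atp6v1d, for a subunit of the central rotor, had the smallest p of the 28. It had 182, 247 and 187 CPM in libraries titled bold and 170.1, 168 and 173 CPM in libraries titled shy. Every library titled bold lay above every library titled shy, although titled bold 1 and titled shy 3 were only 182 and 173 CPM. Its log2 fold was 0.27 ± 0.13, with a 95% interval of -0.027 to 0.56, an unadjusted p of 0.0699 and an edgeR adjusted p of 0.955. The fold was 0.12 without titled bold 2.

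Its partner in the central stalk, atp6v1f, had 167, 224 and 193 CPM in libraries titled bold and 159.9, 175 and 164 CPM in libraries titled shy. Titled bold 2 and titled bold 3 were the highest libraries, titled bold 1 lay below titled shy 2, and the log2 fold was 0.22 ± 0.12 with an edgeR adjusted p of 0.955. The catalytic A subunit, which binds and splits ATP, is encoded by atp6v1a and had 249, 267 and 233 CPM against 241, 230.3 and 237 CPM in libraries titled bold and titled shy. Its log2 fold of 0.079 ± 0.095 had an interval of -0.14 to 0.30, and the groups overlapped.

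The gene atp6v1g1, for a subunit of the peripheral stalk that keeps the catalytic head from turning, had 435, 489 and 455 CPM in libraries titled bold and 435, 451 and 467 CPM in libraries titled shy. The groups overlapped, the highest library was 1.12 times the lowest, and the log2 fold was 0.027 ± 0.10. It turned to -0.0050 when libraries were scaled by totals only. The gene atp6v1h, for the H subunit, which silences ATP splitting when V1 comes off the membrane, had 289 ± 25.6 against 269.7 ± 8.99 CPM, for a log2 fold of 0.10 ± 0.10. The gene atp6v1c1, for the C subunit that joins V1 to V0, had 66.5 ± 7.32 against 63.3 ± 4.32 CPM, for a log2 fold of 0.071 ± 0.12.

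In the V0 part, atp6v0b encodes a proteolipid of the rotating ring that carries protons. It had 230.2, 296 and 215 CPM in libraries titled bold and 232, 196 and 239.6 CPM in libraries titled shy. Titled bold 2 was the highest library and titled shy 2 the lowest, the groups overlapped, and the log2 fold was 0.15 ± 0.14. Without titled bold 2 it was -0.00034. The gene atp6v0a2, for an isoform of the fixed a subunit beside the ring, was the only subunit gene estimated lower, at 25.5 ± 1.31 against 27.2 ± 2.52 CPM, with a log2 fold of -0.10 ± 0.13, and titled bold 2 was its lowest library. The accessory subunit atp6ap2, also known as the prorenin receptor, had 347, 377 and 363 CPM in libraries titled bold and 332, 334 and 351 CPM in libraries titled shy. Titled bold 2 and titled bold 3 were its highest libraries and titled bold 1 lay below titled shy 3, at a log2 fold of 0.10 ± 0.092.

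Titled bold 2 was thus the highest of the 6 libraries for 8 of 9 subunit genes, and for atp6v0a2 it was the lowest. Over all tested genes it was the highest in 25.4%. The 9 genes summed to 1958, 2313 and 2028 summed CPM in libraries titled bold and 1923, 1905 and 2010.4 summed CPM in libraries titled shy. The sum was highest in titled bold 2 and the groups overlapped, since titled shy 3 exceeded titled bold 1. The median log2 fold of the 9 genes was 0.10, with 8 above 0, and 0.030 with 6 above 0 when titled bold 2 was left out. With libraries scaled by totals only, 7 were above 0, and the median was 0.065. The summed markers of neurons and of oligodendrocytes and myelin were also highest in titled bold 2, though syt1, elavl4 and mpz were not. The microglia and macrophage sum, mostly aif1l, was highest there too. Of that set csf1r, mpeg1, irf8 and spi1 were not, and its median log2 deviation was lowest there, at -0.32. The part these markers have in the vacuolar pump values was not tested.

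**Figure D3:**
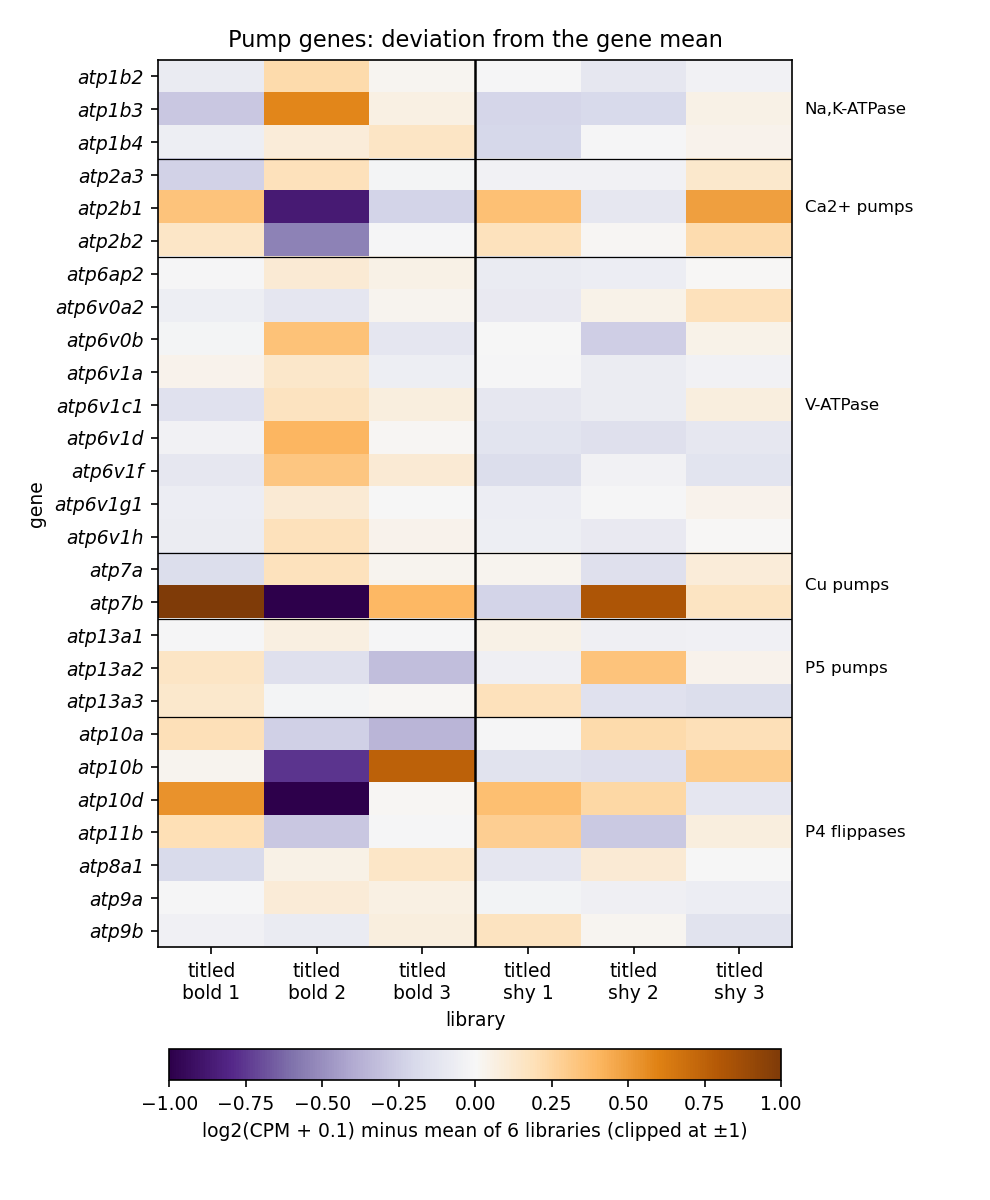
Deviation of log2(CPM + 0.1) from each gene's mean over the 6 libraries, with 27 pump genes as rows by class, libraries as columns, orange for higher and purple for lower values, and a line between libraries titled bold and titled shy. The column of titled bold 2 is orange for 8 of 9 vacuolar pump genes and most strongly purple for atp2b1, atp2b2, atp7b, atp10b and atp10d.

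Copper pumps load copper onto enzymes in the Golgi and export its excess. The gene atp7a, altered in Menkes disease in humans, had 69.5, 88.2 and 79.4 CPM in libraries titled bold and 79.3, 70.0 and 82.9 CPM in libraries titled shy. Libraries of both groups were interleaved, at a log2 fold of 0.031 ± 0.12. The gene atp7b, altered in Wilson disease and active in liver in mammals, was barely read, with 42, 0 and 16 reads in libraries titled bold and 11, 25 and 14 reads in libraries titled shy. The 0 reads in titled bold 2 allow a level of up to 0.174 CPM, counting error only, while titled bold 1 stood at 2.01 CPM. It had the largest SD of log2 CPM of the 28, 2.15, and its log2 fold of 0.34 ± 0.96 changed sign between tools and without titled bold 1.

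No P5 pump gene was called. The gene atp13a1, whose product sits in the endoplasmic reticulum and removes wrongly inserted membrane helices, had 33.4, 35.3 and 33.4 CPM in libraries titled bold and 34.8, 32.5 and 32.7 CPM in libraries titled shy. All libraries lay within 1.09 times the lowest, and its SD of log2 CPM, 0.048, was the smallest among pump genes. The lysosomal polyamine pump gene atp13a2, altered in a hereditary parkinsonism in humans, had 12.9, 10.4 and 9.27 CPM in libraries titled bold and 11.2, 14.7 and 11.9 CPM in libraries titled shy. The groups overlapped, at a log2 fold of -0.21 ± 0.20 and an edgeR adjusted p of 0.955. The related polyamine transporter gene atp13a3 had 33.0 ± 1.78 against 31.3 ± 4.38 CPM in libraries titled bold and titled shy, with a log2 fold of 0.075 ± 0.13.

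Flippases move phospholipids from the outer to the inner leaflet of a membrane, and the 8 flippase genes split evenly, with 4 log2 folds above 0 and 4 below. Scaling by library totals left 2 above and 6 below. The gene atp8a1, for a phosphatidylserine flippase prominent in brain, had 300.2, 355 and 378 CPM in libraries titled bold and 317, 369 and 341 CPM in libraries titled shy. The groups overlapped, and the log2 fold was 0.0098 ± 0.12 with an interval of -0.26 to 0.28. The gene atp9a, for a flippase of endosomes and the Golgi, had 124, 133 and 129.9 CPM in libraries titled bold and 122, 121 and 119 CPM in libraries titled shy. Every library titled bold exceeded every library titled shy, by a margin of 124 over 122 CPM at the nearest pair. The log2 fold was 0.10 ± 0.088, at an unadjusted p of 0.307 and an edgeR adjusted p of 0.955.

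Its sister gene atp9b had 37.6 ± 2.14 against 38.7 ± 4.14 CPM, for a log2 fold of -0.041 ± 0.12. The endosomal atp11b had 10.5 ± 1.76 against 11.05 ± 2.11 CPM, at a log2 fold of -0.067 ± 0.21.

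The 3 members of the atp10 branch, which in mammals handle phosphatidylcholine or glucosylceramide, were the flippase genes with the fewest reads and varied most among them. The gene atp10d had 7.26, 2.38 and 5.04 CPM in libraries titled bold and 6.43, 5.88 and 4.59 CPM in libraries titled shy. Titled bold 1 was the highest and titled bold 2 the lowest library, so that a single group held both ends of the range, and the log2 fold was -0.20 ± 0.38. The gene atp10b had 2.58, 1.45 and 4.34 CPM in libraries titled bold and 2.29, 2.25 and 3.12 CPM in libraries titled shy. Both ends again belonged to libraries titled bold, with titled bold 3 the highest, at a log2 fold of 0.13 ± 0.42. The gene atp10a had 3.61 ± 0.772 against 4.32 ± 0.389 CPM, for a log2 fold of -0.26 ± 0.27, and its groups overlapped.

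**Figure D4:**
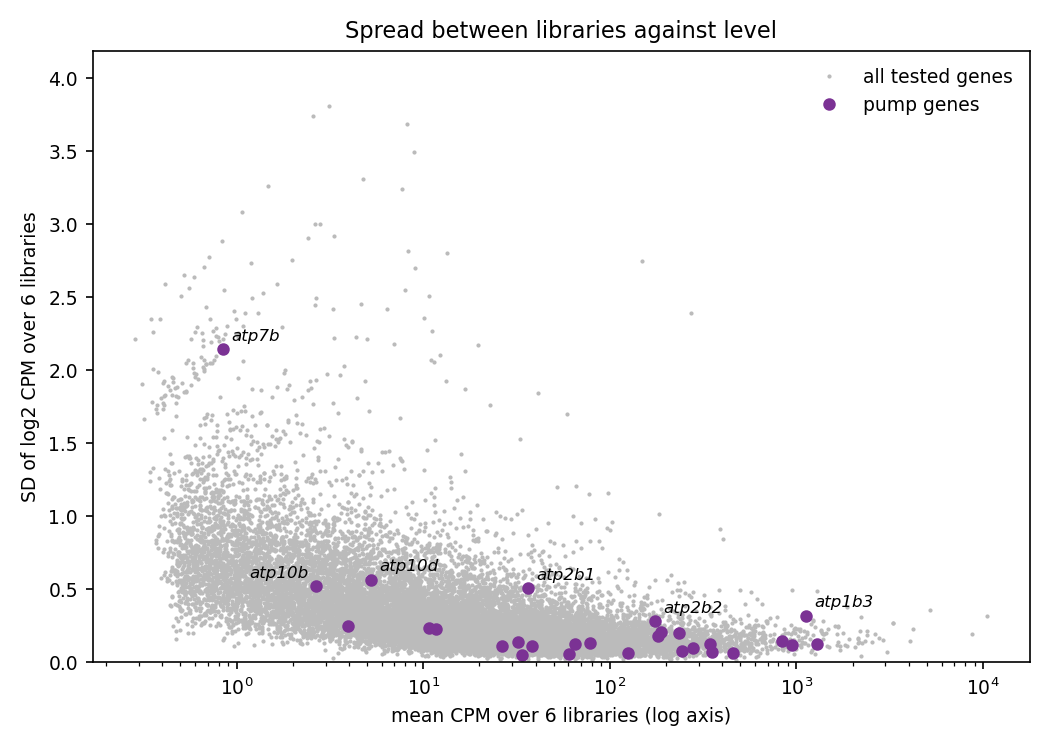
SD of log2 CPM over the 6 libraries (y axis) against mean CPM on a log axis (x axis), with grey points for all 19755 tested genes and purple points for the 28 pump genes; log2 CPM includes an offset of 0.5 reads. Of the 24 pump genes at 10 CPM or more, 16 lie below the median of all genes above that cut, which was not matched for level. The genes atp2b1, atp2b2 and atp1b3 lie above other pump genes of similar level.

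Most pump genes at 10 CPM or more varied less between libraries than the median gene above that cut. Among the 28, a mean of 10 CPM or more was reached by 24, and their median SD of log2 CPM between libraries was 0.13, beside 0.18 for all 11971 tested genes at that level. Of these 24 genes, 16 were below that value. Among the least variable were atp13a1 and atp9a, at SDs of 0.048 and 0.063. Above the general value stood atp2b1 at 0.51, atp1b3 at 0.32 and atp2b2 at 0.28. Relative to the mean of the other 5 libraries, titled bold 2 had 1.62 times the level of atp1b3, 1.33 times that of atp6v0b, 0.635 times that of atp2b2 and 0.478 times that of atp2b1.

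Leaving out titled bold 1 alone raised the count of pump genes at an unadjusted p under 0.05 from 0 to 5 in edgeR. They were atp1b3, atp6v1d and atp6v1f, estimated higher in libraries titled bold, and atp2b1 and atp2b2, estimated lower, with p-values adjusted over all genes of at least 0.380. In that fit 12% of all tested genes had an unadjusted p under 0.05, and 0 genes were called. The remaining group of 2 held titled bold 2, the library at the extreme in all 5 genes.

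The 33 loci that RefSeq assigns to these families include 3 for the catalytic alpha subunit of the sodium-potassium pump. Of them 30 were tested, edgeR called 0, and 2 reached an unadjusted p under 0.05, beside 3.49% of all tested genes. In 5 of the 30 the groups did not overlap, beside 9.53%. The alpha-3 subunit, the neuronal form of the catalytic chain in mammals, was given by a pair of loci that may share reads, since the counting mode is not given. The first, atp1a3a (LOC109640521 in the tables), had 500.0, 412 and 455 CPM in libraries titled bold and 618, 529 and 510.0 CPM in libraries titled shy. All libraries titled bold were below all libraries titled shy, at a log2 fold of -0.28 ± 0.12, an unadjusted p of 0.0465 and an edgeR adjusted p of 0.955. The second, atp1a3b (LOC109633230), had 1104, 889.9 and 1152 CPM in libraries titled bold and 1139.9, 1029 and 1105 CPM in libraries titled shy. Its groups overlapped, at a log2 fold of -0.057 ± 0.12, and titled bold 2 was its lowest library.

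Of the reads of this pair, atp1a3a took 30.4% ± 1.80 in libraries titled bold and 33.6% ± 1.82 in libraries titled shy (SD, n = 3), and the groups overlapped. The glial alpha-2 form, atp1a2a, had 202 reads in all. In titled bold 2 the alpha-3 loci were at their lowest while atp1b2, atp1b3 and the 3 beta loci were at their highest. The beta-1 locus atp1b1b had 124, 285 and 149.5 CPM in libraries titled bold and 137, 137 and 121 CPM in libraries titled shy. The 5 libraries other than titled bold 2 lay between 121 and 149.5 CPM, and the log2 fold was 0.50 ± 0.27. Its duplicate atp1b1a had 465 ± 25.6 against 434 ± 15.6 CPM, at a log2 fold of 0.10 ± 0.10, and took between 63.0% of the pair's reads, in titled bold 2, and 79.3%, in titled bold 1.

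Among vacuolar pump loci, 11 of 13 tested had a log2 fold above 0, beside 48.3% of all tested genes, with a median of 0.17. Titled bold 2 was the highest library for 8 of the 13, beside 25.4% of all tested genes. The 2 below 0 were atp6v0a2a, at -0.063 ± 0.12, and atp6v0a1a, at -0.21 ± 0.14. For atp6v0a1a all libraries titled bold lay below all libraries titled shy, with 26.0, 20.3 and 27.0 CPM against 28.9, 28.2 and 27.9 CPM. The accessory subunit locus atp6ap1a (LOC109644737), which helps assemble the pump, had 441, 596 and 447 CPM in libraries titled bold and 379, 394 and 416 CPM in libraries titled shy. The groups did not overlap, though titled bold 1 and 3 were much nearer to the libraries titled shy than titled bold 2 was. The log2 fold was 0.32 ± 0.13, with an unadjusted p of 0.0428 and an edgeR adjusted p of 0.955. The ring subunit locus atp6v0ca had 568, 879 and 584 CPM in libraries titled bold and 556, 552 and 586 CPM in libraries titled shy. Titled bold 2 again stood above the other 5, which lay between 552 and 586 CPM. Its duplicate atp6v0cb had 331 ± 19.7 against 314 ± 8.23 CPM, and the share of atp6v0ca in the reads of the pair was 71.3% in titled bold 2 and between 63.6% and 64.7% elsewhere.

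Among calcium pump loci none was called. The plasma membrane locus atp2b3b had 272, 185 and 237 CPM in libraries titled bold and 262, 233 and 233 CPM in libraries titled shy, and titled bold 2 was its lowest library. The reticulum pair atp2a2a and atp2a2b, the form used by most cells in mammals, had 256 ± 20.2 against 248 ± 5.39 CPM and 96.1 ± 13.2 against 105 ± 0.479 CPM, at log2 folds of 0.046 ± 0.10 and -0.13 ± 0.12. The Golgi calcium pump locus atp2c1 had 4.32 ± 1.69 CPM over all libraries. Among flippase loci, atp8a2, for a phosphatidylserine flippase of neurons, had 64.1, 29.0 and 59.7 CPM in libraries titled bold and 71.0, 51.2 and 68.9 CPM in libraries titled shy. Its lowest library was titled bold 2, its groups overlapped, and its log2 fold was -0.32 ± 0.27.

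**Figure D5:**
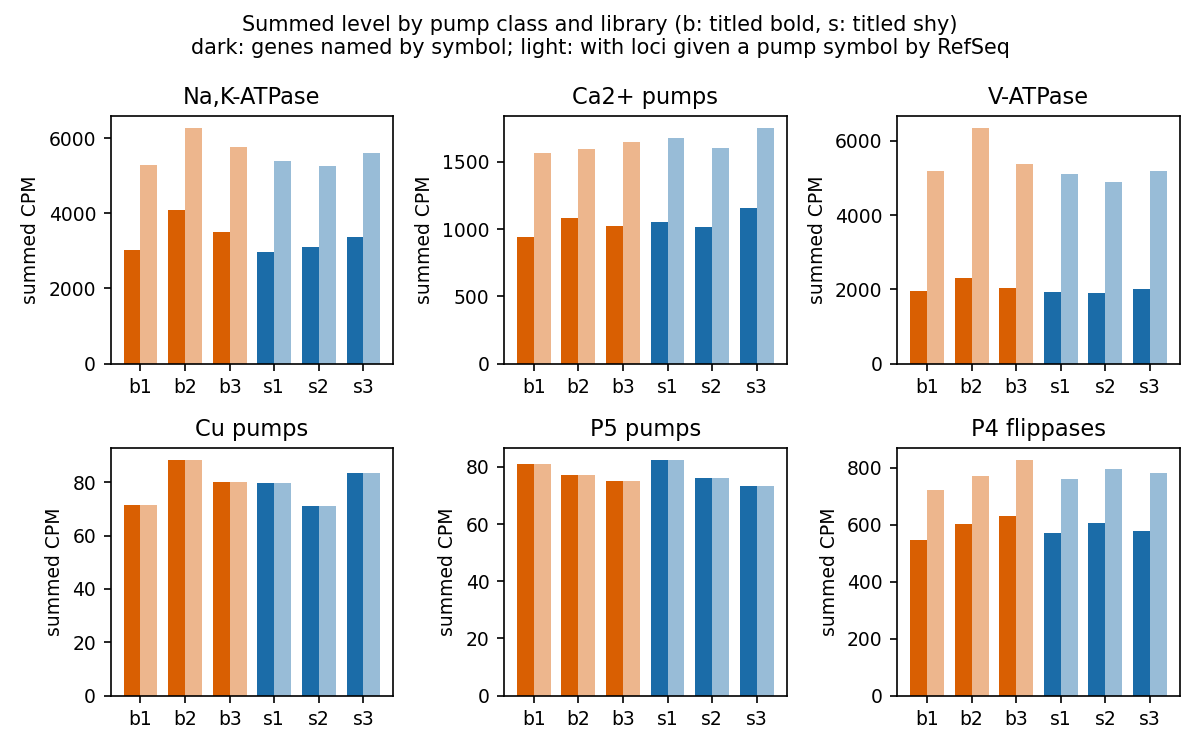
Summed CPM of each pump class in each library (b1 to b3 titled bold, s1 to s3 titled shy), with dark bars for the 28 genes named by symbol and light bars for the same classes with the 33 loci added; y axes start at 0. Titled bold 2 has the tallest bars for the sodium-potassium, vacuolar and copper pumps, at 6341 summed CPM for the vacuolar pump with loci against 4889 to 5364 in the other 5.

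Partners of the pumps that were found by symbol gave no call either. Of 21 genes of the partner and regulator list found by symbol, 19 were tested, and edgeR called 0. In edgeR 3 reached an unadjusted p under 0.05, beside 3.49% of all tested genes, 2 of them with a log2 fold above 0 and 1 below. Groups did not overlap in 4 of the 19, beside 9.53% of all tested genes. The list also held the pump genes atp4a, which was tested, and atp4b, which was not. No fxyd or tmem30 gene was found by symbol. The gene ncoa7, whose product binds the vacuolar pump, had 1.39, 0.871 and 1.60 CPM in libraries titled bold and 2.82, 5.52 and 2.13 CPM in libraries titled shy. The groups did not overlap, and the log2 fold was -1.43 ± 0.45 with an edgeR adjusted p of 0.955. Only 310 reads of ncoa7 were counted over all libraries, and titled shy 2 stood above the others. The gene rnasek, for a small protein associated with the vacuolar pump, had 135, 245 and 164 CPM in libraries titled bold and 119, 119.8 and 128 CPM in libraries titled shy. Titled bold 2 was its highest library and the groups did not overlap, at a log2 fold of 0.57 ± 0.20 and an edgeR adjusted p of 0.955. The other gene with an unadjusted p under 0.05 in edgeR was tmem199, for an assembly factor of the vacuolar pump. It was named here after its values were seen, and had 20.9 ± 2.32 against 15.7 ± 2.31 CPM, for a log2 fold of 0.42 ± 0.16. The most read partners were bsg, whose product accompanies plasma membrane calcium pumps in mammals, at 516 ± 34.5 against 500.1 ± 40.2 CPM, and dmxl2, for a regulator of vacuolar pump assembly at synaptic vesicles, at 155 ± 4.15 against 165 ± 23.3 CPM.

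Exchangers and cotransporters run on the gradients that the pumps build. Of 15 found by symbol, 13 were tested, and edgeR called 0 and found 0 at an unadjusted p under 0.05. Their median log2 fold was -0.078. The sodium-calcium exchanger gene slc8a1 had 173 ± 11.4 against 182 ± 9.21 CPM, for a log2 fold of -0.078 ± 0.10, and slc24a4, for a potassium-dependent exchanger, had 233 ± 27.2 against 216 ± 5.53 CPM and 0.11 ± 0.11. The smallest p-values belonged to slc8b1, for the mitochondrial sodium-calcium exchanger, at 5.999 ± 1.02 against 8.34 ± 0.662 CPM, for a log2 fold of -0.47 ± 0.22, and to slc24a2, at 151 ± 25.6 against 123 ± 13.1 CPM and 0.29 ± 0.14. Their edgeR adjusted p-values were both 0.955.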

How the data were processed

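Per the labels' protocols, flounder hindbrain mRNA was prepared with a stranded kit and sequenced from both ends. What the authors deposited is a table of raw counts for each library, over 24395 genes. HTSeq 0.11.1, TopHat2 2.0.11 and Trimmomatic 0.30 are listed in the submitters' processing notes. The sources used here give no build, annotation, strand setting or counting mode, so reads of close paralogs may be split or lost.

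All 6 libraries were used, 3 per title group. Genes kept by filterByExpr (19755) were compared, after TMM scaling, by edgeR's robust quasi-likelihood test (two-sided), and p-values were adjusted over all of them. The procedure was tested on simulated counts in which 200 genes were changed. It recovered 45.5% of 2-fold and 86% of 4-fold changes, and 7 of its 138 calls were false. Counts were drawn for each gene on its own, with no deviation shared across the genes of a library. Titled bold 2 stood apart over many genes, so these rates need not hold for the real libraries. Class sums and medians are descriptions without a test. LOC numbers were given symbols from RefSeq assembly ASM2471397v2, which named 5666 of 14730, and it held 21 of the 28 pump symbols. Levels per coding length and sequence motifs were planned and not run, because neither transcript lengths nor sequences were used here.

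The 28 genes and the lists were chosen with earlier results of these data known. Named genes were the 2 with the highest mean per class, the 10 with the smallest p, and the 3 most and least variable (least variable from 1 CPM). For partner lists they were 2 by p and 2 by mean. All other pump genes are given by value, except that the values of 1 pump gene and 1 marker are not reported here, and loci described were chosen after their values were seen. Other settings tried were scaling by upper quartile, RLE or totals, limma-voom (plain or with quality weights), DESeq2, no filter, 1 CPM in 3 libraries, no robust estimation, leaving out each library, a replicate block, and adding the loci. Software comprised DESeq2 1.42.0, limma 3.58.1 and edgeR 4.0.16 in R 4.3.3, and matplotlib 3.10.9 in Python 3.11.15.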

Additional observations from a re-analysis of the deposited data

How the results depend on the processing

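No pump gene was called under any alternative tried. The median log2 fold of the pump genes, 0.051 in the main fit, stayed above 0 throughout. It lay between 0.010, without titled bold 2, and 0.094, without titled bold 1. The median deviation of the pump genes from their gene means had a pooled within-group SD of 0.049 between libraries. Over all genes, edgeR and limma-voom called 0 in every fit and DESeq2 called 13. The count of pump genes at an unadjusted p under 0.05, which was 0, became 1 with the replicate block (atp2b1), 2 with the loci added, and ranged from 0 to 5 when 1 library was left out. The replicate block raised that count over all genes from 690 to 1160. Same-numbered libraries correlated in their deviations at 0.30, 0.12 and 0.069, so the numbers were not taken to pair them, although every library except titled shy 3 correlated best with the library of its own number, a hint from the data and not from the design.

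Signs of some estimates turned under some settings, and the cause was not tested. With library totals only, the log2 fold was -0.0050 for atp7a, -0.023 for atp8a1, -0.0043 for atp13a1 and -0.0050 for atp6v1g1. For atp7b it was -0.88 with limma-voom, -0.11 with quality weights and -0.074 with the replicate block. When each library was left out in turn, the log2 fold ranged from -0.055 to 0.14 for atp7a, -0.85 to 0.90 for atp7b, -0.062 to 0.12 for atp8a1, -0.14 to 0.086 for atp2a3, -0.00034 to 0.24 for atp6v0b, -0.019 to 0.085 for atp6v1g1, -0.58 to 0.13 for atp10d and -0.34 to 0.44 for atp10b. In the same fits the log2 fold ranged from -0.20 to 0.079 for atp11b and from -0.10 to 0.048 for atp9b. In 17 of 28 pump genes the sign was the same in all 6 of these fits. With 3 libraries per group, the 95% intervals of atp2b1, atp7b, atp10b and atp10d reached past a 2-fold change, and atp7b had the fewest reads of the 28.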
